A study of Mus musculus with 18 samples.

Results

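Hif1a and the genes around it form the oxygen-sensing pathway of the heart muscle. 10 genes of that pathway were listed by name (Hif1a, Epas1, Hif3a, Egln1, Egln3, Vhl, Vegfa, Bnip3, Adm and Slc2a1), and 9 of them were held by the files, among 12911 genes in all. No annotated transcript of Hif3a was among those used, so Hif3a was not analysed here. All 9 held genes passed the filter on low values. The genes were chosen by name with earlier results of these libraries known, that is with their FPKM by treatment group and library in view, so their treatment differences are given as a description.

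The study asked how ethoxysanguinarine (ETH), an alkaloid related to sanguinarine, bears on gene expression in hearts exposed to angiotensin II (AngII), the effector peptide of the renin system, which constricts vessels and promotes cardiac remodelling. Cardiac tissue came from wild-type C57BL/6 mice, with no age given in the labels. The 3 groups were saline for 28 days, AngII at 500 ng/kg/min for 28 days, and AngII at the same dose with ETH at 10 mg/kg per day (AngII+ETH), with 6 libraries in each. There was no group with ETH alone, and which chamber was taken is not stated. The labels do not tie each library to an animal, so the tests measure the spread between libraries.

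In cells with enough oxygen, prolyl hydroxylases (Egln1, Egln3) mark the HIF alpha subunits (Hif1a, Epas1), and the ubiquitin ligase subunit Vhl then targets them for breakdown. When oxygen is low, the alpha subunits escape this mark, pair with Arnt and switch on genes for vessel growth, glucose uptake, mitochondrial clearance and vasodilation. HIF alpha protein is governed mainly by this breakdown, so the RNA levels below say nothing of the protein. HIF dimers recognise short DNA cores, ACGTG or GCGTG.

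These cores were looked for on both strands in the 250 bases before each RefSeq gene start (build GRCm38.p6), with overlapping matches counted separately and CACGTG counted on each strand. 9 of the 10 listed genes were matched and Epas1 is named only. A core was present before 8 of their 10 starts, since Vegfa has more than 1 start in the table, against 38.6% of all 32851 promoters and 52.3% of the 18364 promoters that were at least as GC-rich as the least GC-rich of these (50.8% GC). A match describes letters and is not a bound site. The Vhl promoter held no match, nor did the Vegfa promoter at chr17:46032328-46032627. The other Vegfa promoter, at chr17:46025114-46025413, held 2. Bnip3 held 5, Hif1a 3, and Egln1, Adm and Slc2a1 held 2 each, while Egln3 held 1. One window is shown for each of Hif1a, Egln1, Egln3, Bnip3, Slc2a1 and Adm, with an ACGTG match wherever the gene held one. Each is written 5′ to 3′ in the direction of the gene, with the core in capitals.
Hif1a, core 70 bases before the start, chr12:73907785-73907813, plus strand: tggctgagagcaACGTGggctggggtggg
Egln1, core 68 bases before the start, chr8:124949306-124949334, minus strand: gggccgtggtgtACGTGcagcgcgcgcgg
Egln3, core 229 bases before the start, chr12:54204087-54204115, minus strand: tgtgcatctcagACGTGagatccaggttt
Bnip3, core 107 bases before the start, chr7:138909597-138909625, minus strand: cgcacgcgccgcACGTGccacacgctccc
Slc2a1, core 36 bases before the start, chr4:119108697-119108725, plus strand: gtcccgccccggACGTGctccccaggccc
Adm, core 54 bases before the start on the opposite strand (so read as CACGC), chr7:110627591-110627619, plus strand: ggcaaatctgacCACGCccaccgtccgcc
The 5 letters shared by Hif1a, Egln1, Egln3, Bnip3 and Slc2a1 in these windows are the searched core and follow from that choice of window. Egln1, Bnip3 and Slc2a1 also held 1, 3 and 1 matches of the GCGTG form, and Adm held only that form.

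The values are FPKM (fragments scaled to transcript length and to library size), a unit inferred from the values. The sums hold only the annotated transcripts in the files, so a gene's level can be too low and an order of levels between genes is that of the listed values. The cardiomyocyte genes Tnnt2 (138 to 2032 FPKM) and Actc1 (968 to 6548 FPKM) were present in every library, as the cardiac label says. Summed cardiomyocyte markers ranged from 2273 to 10953 FPKM in saline, 7183 to 11430 under AngII and 4896 to 11376 under AngII+ETH. The libraries differed in chamber genes. The atrial light chain gene Myl7 was listed at 0 FPKM in 3 libraries, 1 of each group: replicate 5 of saline, replicate 3 of AngII and replicate 4 of AngII+ETH. The ventricular light chain gene Myl2 was at 3.77 FPKM in saline replicate 6 and 3.37 FPKM in AngII replicate 5. The fat marker Adipoq reached 105 and 168 FPKM in saline replicates 4 and 6. Summed endothelial markers ranged from 198 to 252 FPKM in saline, 213 to 275 under AngII and 182 to 296 under AngII+ETH. Summed fibroblast markers ranged from 298 to 1028, 411 to 1240 and 369 to 1525 FPKM in the same order. The matching ranges were 1290 to 4828, 1872 to 4444 and 2210 to 4833 FPKM for red cell markers, 110 to 253, 107 to 201 and 150 to 269 for macrophage markers, and 84.5 to 278, 112 to 178 and 129 to 221 for smooth muscle and pericyte markers. The transcripts listed for AngII+ETH are not the same set as those listed for the other groups, so a difference in how the files were made cannot be told apart from ETH.

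Across all 18 libraries the hydroxylase gene Egln1 had the highest listed FPKM of the 9 genes, at 118 ± 25.7 FPKM (SD, n = 18). Epas1 followed at 71.5 ± 9.95 FPKM and Vegfa at 34.2 ± 6.20 FPKM. Egln3 (21.0 ± 8.72 FPKM), Bnip3 (13.6 ± 11.3 FPKM) and Adm (12.9 ± 8.54 FPKM) came next and overlapped each other widely. Slc2a1 (6.90 ± 1.68 FPKM), Vhl (5.46 ± 0.767 FPKM) and Hif1a (4.30 ± 2.23 FPKM) stood lowest and overlapped too. The listed FPKM of Epas1, which encodes the HIF2 alpha subunit, was above that of Hif1a in every library, where Epas1 rests on 1 of 2 and Hif1a on 1 of 5 annotated transcripts. The highest library exceeded the lowest by 1.62 times for Epas1, 1.76 times for Vhl and 1.81 times for Vegfa. The same ratio was 7.14 for Hif1a, 7.13 for Adm, 6.30 for Egln3 and 15.1 for Bnip3.

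**Figure D1:**
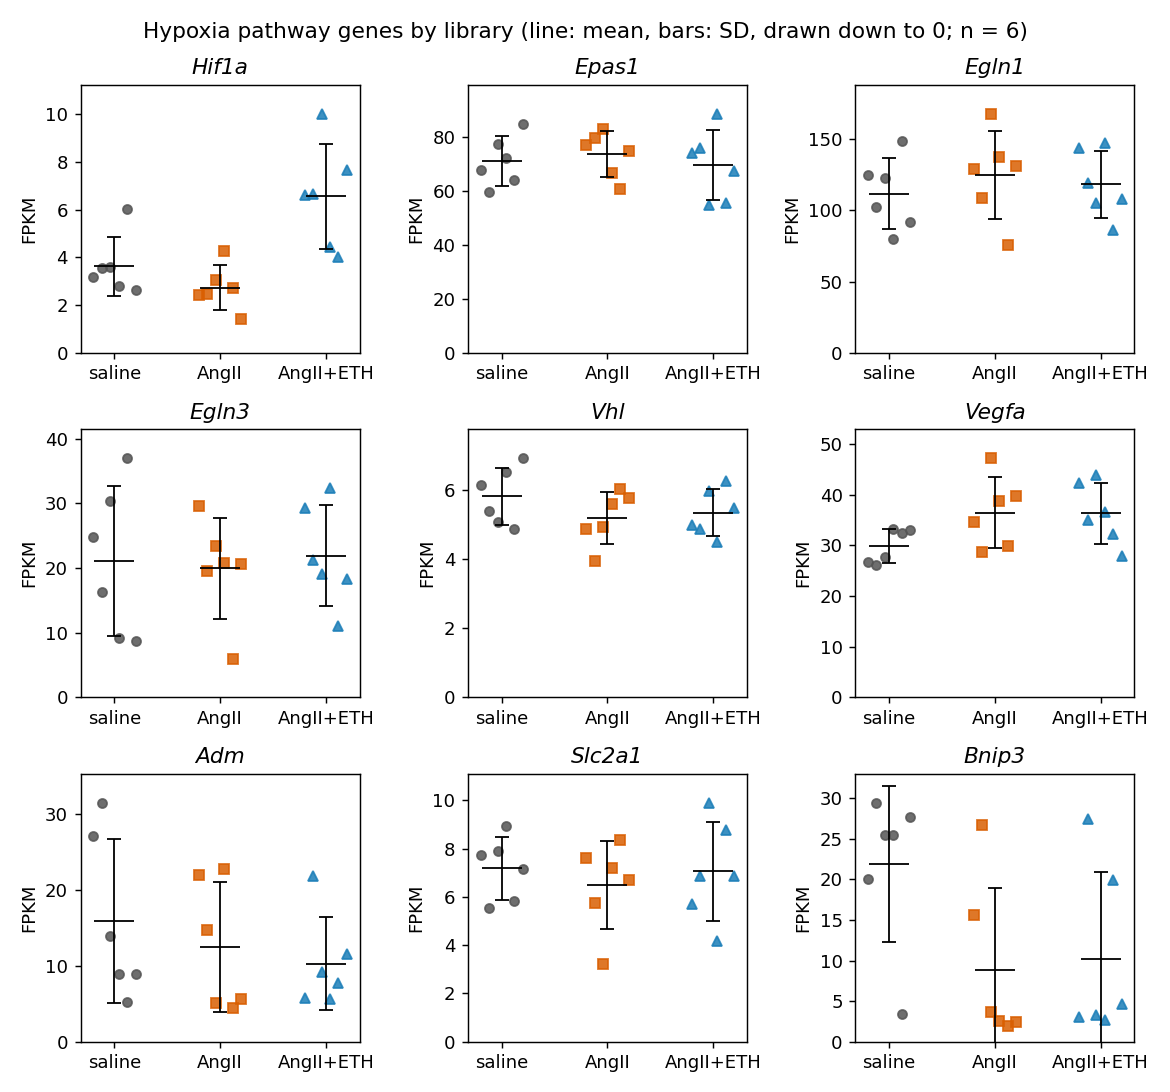
FPKM of the 9 genes in each of 18 libraries, by group, with the group mean (line) and SD (bars, n = 6, drawn down to 0). Most Hif1a points of AngII+ETH sit above those of the other groups, Bnip3 falls into a low and a high cluster, and the groups overlap for every gene.

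Hif1a encodes the HIF1 alpha subunit. Its summed value rests on 1 transcript, Hif1a-201, of the 5 that GENCODE M21 annotates at chr12:73901375-73947530 on the plus strand. It is in both transcript lists. In saline it was at 3.17, 3.53, 3.58, 2.80, 6.02 and 2.65 FPKM in replicates 1 to 6. In AngII it was at 2.41, 2.48, 3.03, 4.28, 2.72 and 1.40 FPKM. In AngII+ETH it was at 6.60, 6.65, 10.03, 4.43, 4.01 and 7.68 FPKM. All 6 AngII+ETH libraries lay above the AngII median of 2.60 FPKM and 5 of them above the highest AngII library, while AngII+ETH replicate 5 lay below AngII replicate 4, so the groups overlap. Saline replicate 5, where Myl7 is listed at 0, was well above the other saline libraries. The other libraries with Myl7 at 0, AngII replicate 3 (3.03 FPKM) and AngII+ETH replicate 4 (4.43 FPKM), lay within the range of the rest of their groups.

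The Hif1a means were 3.63 ± 1.23 FPKM in saline, 2.72 ± 0.942 under AngII and 6.57 ± 2.21 under AngII+ETH (SD, n = 6). AngII+ETH against AngII gave a ratio of means of 2.41 and a difference of 1.01 in log2(FPKM + 1), with an SE of 0.212 and a 95% interval of 0.57 to 1.46. That scale understates the change of genes at such low levels. AngII+ETH against saline gave 0.69 (SE 0.212, interval 0.25 to 1.14), and AngII against saline gave −0.32 (SE 0.212, interval −0.76 to 0.13). In limma's fit over all 11703 tested genes, Hif1a did not pass an adjusted p under 0.05 in any of these comparisons. For AngII+ETH against AngII its difference ran from 0.89 to 1.24 over 23 other settings, and its lowest adjusted p there was 0.0770, when libraries were weighted. With the chamber markers as a covariate the difference was 0.99, and without the 5 libraries low in a chamber marker it was 1.14. Hif1a shares its locus with the annotated genes Gm15283 and Gm49321, whose reads cannot be told apart here.

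Epas1 encodes the alpha subunit best known from endothelial cells. Its lowest, median and highest values were 59.7, 70.2 and 85.1 FPKM in saline. They were 61.0, 76.0 and 83.3 FPKM in AngII, and 54.9, 71.0 and 88.9 FPKM in AngII+ETH. The 3 groups cover nearly the same range. The Epas1 difference for AngII+ETH against AngII was −0.10 in log2(FPKM + 1), and the largest of the 3 in size. The partner Arnt, which both alpha subunits need to bind DNA, was at 8.11 ± 1.37 FPKM in saline, 8.21 ± 2.04 under AngII and 6.42 ± 0.743 under AngII+ETH (SD, n = 6). Arnt did not pass the test in any comparison.

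Egln1 encodes the main oxygen-sensing prolyl hydroxylase. Its lowest, median and highest values were 80.1, 113 and 149 FPKM in saline. They were 75.7, 130.1 and 168 FPKM in AngII, and 86.3, 114 and 148 FPKM in AngII+ETH. The highest library of each group is the one where Myl7 is listed at 0. The Egln1 differences were 0.15 for AngII relative to saline, −0.06 for AngII+ETH relative to AngII and 0.09 for AngII+ETH relative to saline.

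Egln3 encodes the hydroxylase that is itself induced by HIF. Its lowest, median and highest values were 8.75, 20.5 and 37.0 FPKM in saline. They were 5.86, 20.7 and 29.6 FPKM in AngII, and 10.9, 20.2 and 32.4 FPKM in AngII+ETH. The Egln3 medians nearly coincide while the libraries within each group spread about as widely as all 18. The Egln3 differences of −0.01, 0.18 and 0.17, in the same order of comparisons, have wide 95% intervals, the first from −0.82 to 0.80. Vhl was at 5.83 ± 0.830 FPKM in saline, 5.20 ± 0.765 under AngII and 5.36 ± 0.681 under AngII+ETH (SD, n = 6), and its groups overlap.

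Vegfa encodes the growth factor that drives vessel sprouting. Its lowest, median and highest values were 26.0, 30.1 and 33.2 FPKM in saline. They were 28.6, 36.7 and 47.2 FPKM in AngII, and 27.9, 35.8 and 44.0 FPKM in AngII+ETH. In AngII, 4 libraries lay above the highest saline library, and in AngII+ETH 4 did, while the rest overlap with saline. The Vegfa difference was 0.27 for AngII against saline (SE 0.131, 95% interval −0.01 to 0.54) and 0.26 for AngII+ETH against saline (interval −0.01 to 0.54), and these comparisons share the saline libraries. Over 23 other settings the AngII difference ran from 0.19 to 0.54, highest with chamber and adipocyte markers as covariates. None of them passed limma's adjusted p under 0.05, and the lowest was 0.303. Summed endothelial markers were on average 222 FPKM in saline, 251 under AngII and 248 under AngII+ETH. Summed cardiomyocyte markers were on average 6635, 9522 and 8418 FPKM in the same order. The part of either in the Vegfa difference was not tested.

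Vegfa is the only one of the 9 genes that rests on several transcripts: 7 of its 13 annotated ones are in the files and 6 in both lists. The coding transcripts Vegfa-202, Vegfa-201 and Vegfa-207 held a median of 41.2%, 34.8% and 15.8% of the Vegfa sum. The split between Vegfa-201 and Vegfa-202 varied far more than the sum did. Vegfa-201 is listed at 0 FPKM in AngII replicate 2, where Vegfa-202 was at 21.9 FPKM, its highest value in any library. Vegfa-201 exceeded Vegfa-202 in 4 libraries. In saline replicates 1 and 4 it was at 13.5 and 15.7 FPKM with Vegfa-202 at 7.16 and 8.06 FPKM, and in AngII replicate 1 and AngII+ETH replicate 6 it was at 12.6 and 10.95 FPKM with Vegfa-202 at 10.8 and 10.83 FPKM. A value of 0 beside a high sister transcript can be a failed estimate, so the sum is the safer measure.

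**Figure D2:**
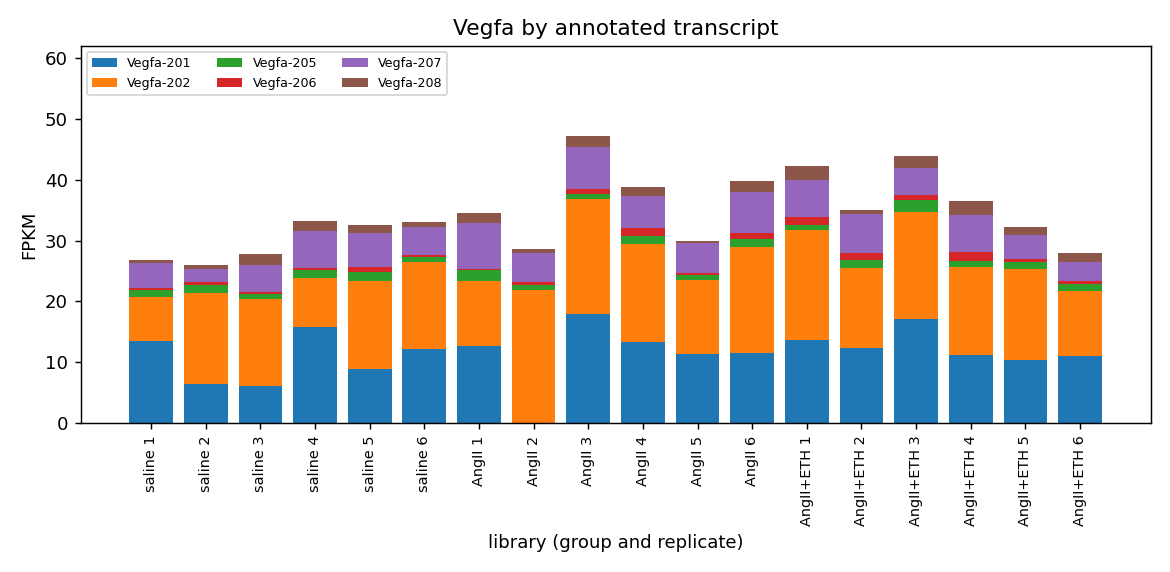
Stacked FPKM of the 6 Vegfa transcripts common to all files, for each of 18 libraries. The Vegfa sum runs from 26.0 to 47.2 FPKM, and AngII replicate 2 has no Vegfa-201 segment.

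Adm encodes adrenomedullin, a vasodilator peptide. Its lowest, median and highest values were 5.21, 11.5 and 31.6 FPKM in saline. They were 4.42, 10.2 and 22.8 FPKM in AngII, and 5.58, 8.48 and 21.9 FPKM in AngII+ETH. The Adm groups overlap over most of their range, and only AngII+ETH replicate 2 was above 12 FPKM in its group. The Adm difference for AngII against saline was −0.36 and for AngII+ETH against saline −0.48. Slc2a1 encodes GLUT1, the glucose transporter that HIF1 induces. It was at 7.17 ± 1.30 FPKM in saline, 6.48 ± 1.82 under AngII and 7.05 ± 2.06 under AngII+ETH (SD, n = 6), and its groups overlap.

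Bnip3 encodes a mitochondrial protein that promotes mitophagy and cell death. In saline it was at 20.02, 29.5, 25.5, 25.5, 3.43 and 27.7 FPKM in replicates 1 to 6. In AngII it was at 15.6, 26.7, 3.68, 2.505, 1.95 and 2.40 FPKM. In AngII+ETH it was at 3.03, 27.4, 3.26, 2.72, 19.9 and 4.67 FPKM. Bnip3 thus fell into a pair of clusters, with 9 libraries from 1.95 to 4.67 FPKM, 9 from 15.6 to 29.5 FPKM and none between. The low cluster held 1 saline, 4 AngII and 4 AngII+ETH libraries. The gap between the clusters was 3.34-fold, while the widest gap between neighbouring libraries in any of the other 8 genes was 1.71-fold, in Hif1a.

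The Bnip3 means were 21.9 ± 9.61 FPKM in saline, 8.80 ± 10.2 under AngII and 10.2 ± 10.7 under AngII+ETH (SD, n = 6), and with such clusters the mean describes few libraries. The difference was −1.59 for AngII against saline (SE 0.670, 95% interval −3.003 to −0.18) and −1.34 for AngII+ETH against saline (SE 0.670, interval −2.75 to 0.07). AngII+ETH against AngII gave 0.25 with an interval of −1.16 to 1.66. Bnip3 did not pass limma's adjusted p under 0.05. The 3 libraries where Myl7 is listed at 0 were all in the low cluster, and so was AngII replicate 5, which had the lowest Bnip3 value and a Myl2 of 3.37 FPKM. Saline replicate 6, with a Myl2 of 3.77 FPKM, was in the high cluster at 27.7 FPKM. The rest of the low cluster was AngII replicates 4 and 6 and AngII+ETH replicates 1, 3 and 6. Neither these nor the rest of the high cluster had Myl7 or Myl2 under 10 FPKM. The Bnip3 sum rests on 1 of 5 annotated transcripts, Bnip3-201, and Gm45507 and Gm18258 lie on the opposite strand within its locus at chr7:138890836-138909519. The strand setting of the counting is not stated, so their reads cannot be told apart from those of Bnip3.

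By limma with Benjamini-Hochberg adjustment over 11703 genes, 0 of the 9 genes passed for AngII against saline, where 0.00854% of all genes did. Adding ETH to AngII gave a count of 0 of 9, where 0% of all genes passed. AngII+ETH set against saline gave 0 of 9, where 0.00854% did. At an unadjusted p under 0.05 the counts were 1 of 9 (Bnip3), 1 of 9 (Hif1a) and 1 of 9 (Hif1a), and 1060, 224 and 879 genes of all tested. No gene of the 9 had groups that did not overlap, which held for 0.359%, 0.0513% and 0.607% of all genes.

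**Figure D3:**
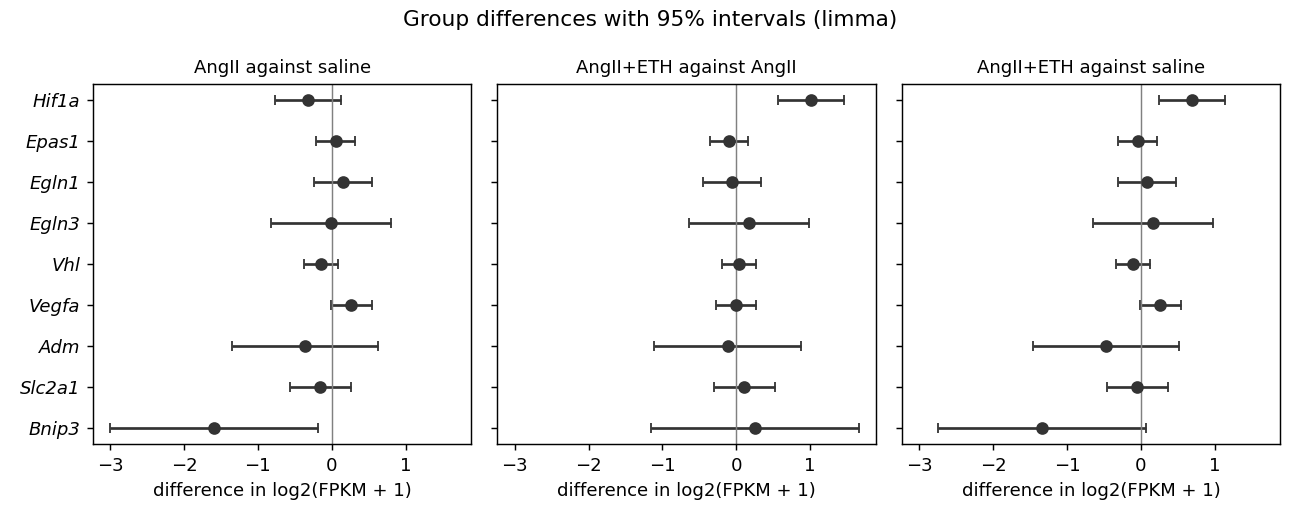
Difference of each gene in log2(FPKM + 1) for the 3 comparisons, with 95% intervals from limma (n = 6 per group). Hif1a is at 1.01 for AngII+ETH against AngII and Bnip3 has the widest intervals.

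How the genes vary with chamber makeup was fitted on the same values by library that were in view when the genes were chosen, so the slopes are a description and not a test independent of that choice. A chamber index was formed for each library as the mean log2(FPKM + 1) of the atrial genes Myl7, Myl4 and Sln minus that of the ventricular genes Myl2, Myl3 and Hey2. It ran from −8.47 to 8.16, and its group means were 1.92 ± 5.43 in saline, 1.09 ± 5.27 under AngII and 0.0823 ± 4.41 under AngII+ETH (SD, n = 6). The slope of each gene on this index was fitted with the treatment groups kept in the model. In bulk tissue fewer cells of a type and less RNA per cell cannot be told apart.

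Both hydroxylase genes were lower where the atrial markers were higher. Egln1 was at 149, 168 and 148 FPKM in the 3 libraries where Myl7 is listed at 0, and at 91.8 and 75.7 FPKM in the pair with Myl2 under 10 FPKM. Egln3 was at 37.0, 23.4 and 32.4 FPKM in the first 3 and at 8.75 and 5.86 FPKM in that pair. The ventricular libraries lie above the atrial ones for both genes, with no overlap between these 5 libraries.

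The Egln1 slope was −0.0544 log2 per index unit (SE 0.0102). The Egln3 slope was −0.103 (SE 0.0242). Over the whole range of the index, 16.6 units, these amount to −0.90 and −1.71 in log2(FPKM + 1). The same sign was seen for Egln1 and Egln3 under all 28 other settings. Without the 5 libraries low in a chamber marker the Egln1 slope was −0.149 and the Egln3 slope −0.304, and of these only Egln3 kept an adjusted p under 0.05. With the adipocyte markers as a further covariate Egln3 was at −0.0742 and did not.

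Slc2a1 went the other way. It was at 5.82, 3.23 and 4.18 FPKM in the 3 libraries without Myl7 and at 7.14 and 8.35 FPKM in the pair with little Myl2. Its slope was 0.0544 (SE 0.0116). It missed the threshold with quantile normalization (0.0304) and without the 5 libraries (0.118). Slc2a1 was thus higher toward the atrial side and both hydroxylase genes toward the ventricular side.

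The median gene itself had a slope of 0.0189, or 0.31 log2 over the index range, which fell to 0.02 with median-of-ratios scaling and to −0.04 with quantile normalization. Relative to it the slopes were −0.0733 for Egln1, −0.122 for Egln3 and 0.0355 for Slc2a1. Vhl had a slope of 0.0219 (SE 0.00793), but only 0.00300 of it lies beyond the median gene, and under quantile normalization it turned to −0.00256. It missed the threshold, with the same sign, under 9 more of the 28 settings. Epas1 and Vegfa did not pass as fitted, and passed under 1 and 3 of the 28 other settings. Their slopes were −0.0150 and −0.0183 as fitted, and with median-of-ratios scaling −0.0371 and −0.0401, both past the threshold.

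By limma 4 of the 9 genes had a slope with an adjusted p under 0.05, where 39.4% of all genes did, and the count is near the background. In the lower direction 2 of 9 passed (Egln1 and Egln3), where 7.22% of all genes did, and in the higher direction 2 of 9 (Slc2a1 and Vhl), where 32.1% did. This split depends on the scaling. With median-of-ratios scaling 5 of the 9 passed, 1 higher and 4 lower, and with quantile normalization 3 passed, 0 higher and 3 lower. Of all genes 17.0% were lower and 16.3% higher under the first scaling, and 16.1% lower and 13.0% higher under the second. Hif1a (−0.0192), Bnip3 (0.102) and Adm (0.0526) did not pass, and Bnip3 did so when AngII replicate 5 was left out (0.151).

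**Figure D4:**
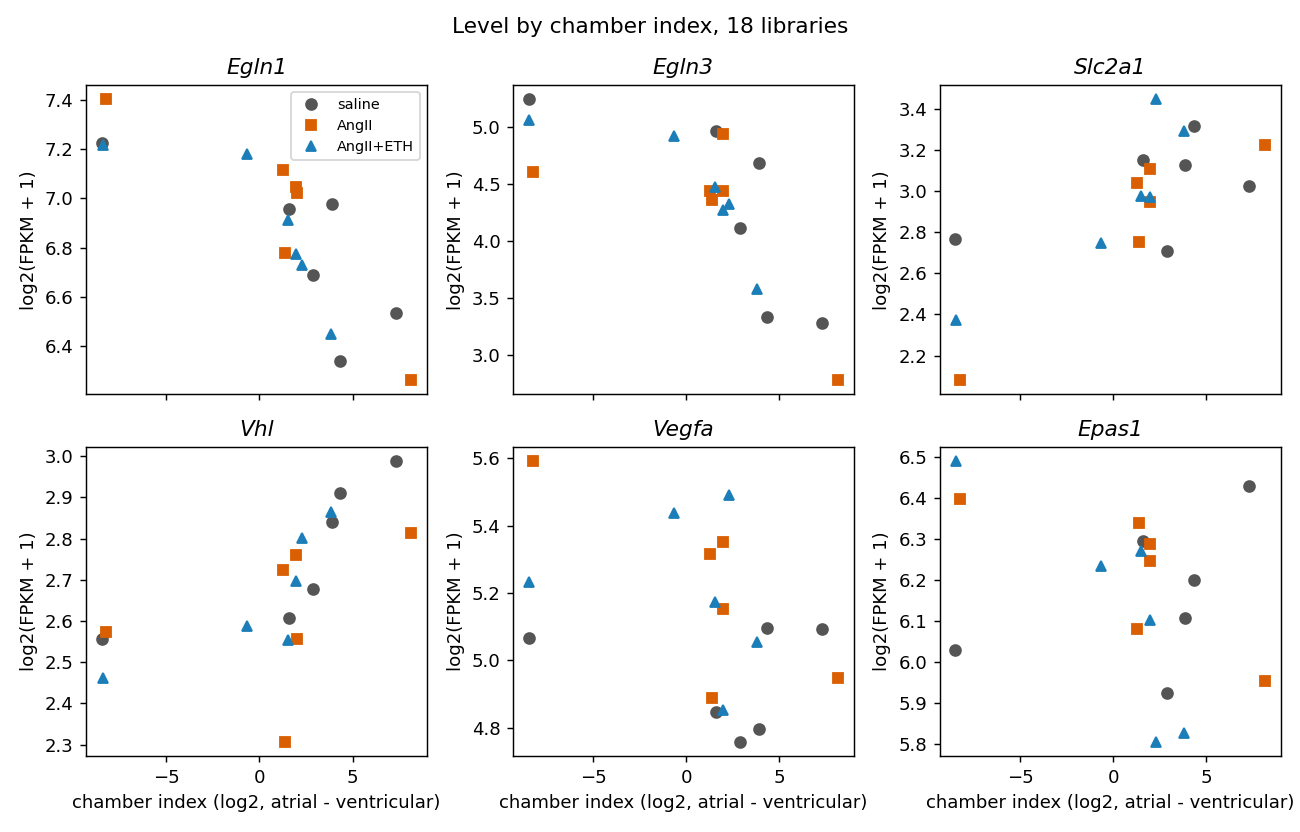
Level in log2(FPKM + 1) against the chamber index for 6 genes, 1 point per library, marked by group. Egln1 and Egln3 decline from left to right and Slc2a1 climbs, with 3 libraries near −8 and the rest from about −1 upward.

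Within the groups, the profiles of Egln1 and Egln3 were the most alike of the 36 pairs among the 9 genes. The root mean square distance between their z-scored, group-centred profiles over 18 libraries was 0.410, against a median of 1.41 over the pairs. Slc2a1 with Vhl (0.909) and Adm with Bnip3 (0.911) came next, and Egln3 with Vhl (1.85) were farthest apart. These libraries share the differences in chamber and fat markers given above.

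**Figure D5:**
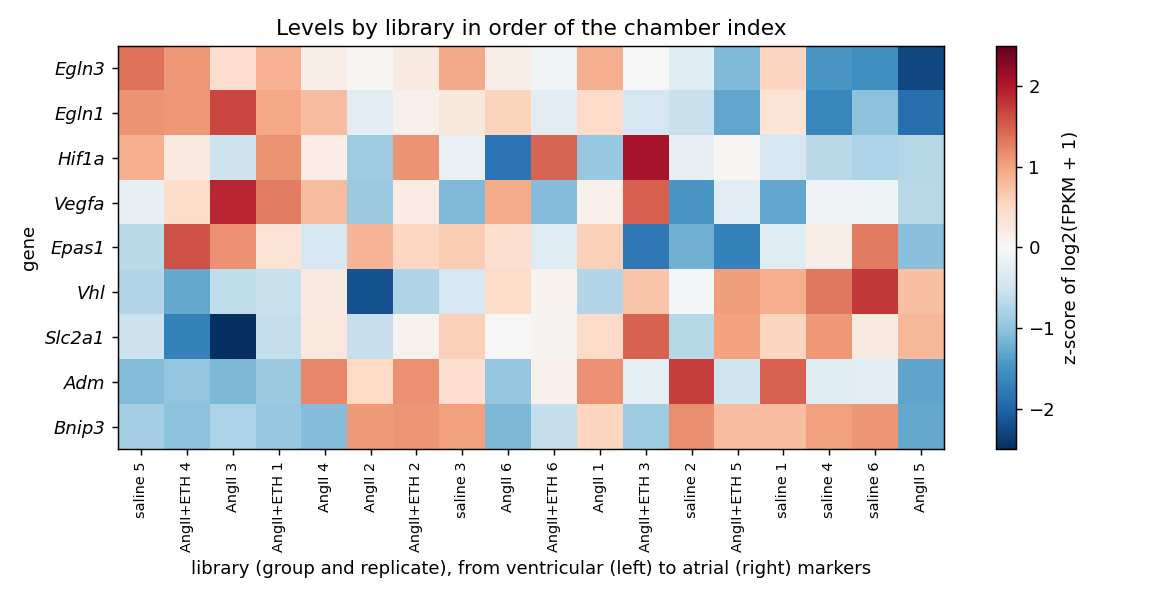
z-score of log2(FPKM + 1) of each gene over 18 libraries, ordered by the chamber index from ventricular (left) to atrial (right). Egln1 and Egln3 are red on the left and blue on the right, and Bnip3 switches between low and high libraries.

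By the same distance, the genes most like Hif1a among 6415 searched were Srpk3 (0.729), Klhl40 (0.821), Pkp2 (0.836), Slc16a1 (0.838) and Yipf7 (0.859). Those most like Epas1 were Noa1 (0.549), Vars2 (0.590), Eral1 (0.602), Xdh (0.604) and 1600014C10Rik (0.605). Among those most like Vegfa were Ntmt1 (0.722), Gpx4-ps2 (0.734), Ciapin1 (0.738) and Mrpl22 (0.753). None of the 9 genes is among these.

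A further 81 genes of the pathway were listed in 4 groups, and 73 were tested. Of 13 tested partners and regulators (such as Arnt, the asparaginyl hydroxylase Hif1an and the coactivators Ep300 and Crebbp), 0 passed limma's test in any treatment comparison. Of 17 angiogenic targets 0 passed, and of 16 metabolic targets 0 passed. Of 27 other targets 1 passed, Angptl4, an inhibitor of lipoprotein lipase. At an unadjusted p under 0.05 the 73 genes gave 9 for AngII and 11 for AngII+ETH when each was set against saline, and 1 between these groups. Of all tested genes the shares were 9.06%, 7.51% and 1.91% in that order.

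Angptl4 fell from 15.3 ± 12.8 FPKM in saline to 1.37 ± 0.609 in AngII and 1.09 ± 0.428 in AngII+ETH (SD, n = 6), with log2 differences of −2.46 (adjusted p = 0.0414) and −2.63 (adjusted p = 0.0175) by limma. The summed adipocyte markers were 0.158 to 457 FPKM in saline, 0.0418 to 4.44 under AngII and 0 to 51.9 under AngII+ETH, and the Angptl4 differences with the chamber and adipocyte covariates were −1.70 (adjusted p = 0.875) and −2.16 (adjusted p = 0.0871) by limma. Leaving out 1 library ended the first Angptl4 call in 14 of 18 cases and the second in 5 of 18, all 5 of them AngII+ETH libraries (replicates 1 and 3 to 6), with the difference between −2.71 and −2.16 and between −2.88 and −2.33. Both Angptl4 calls were also lost by limma without the 5 libraries low in a chamber marker (adjusted p = 0.207 and 0.115) and with only the groups compared (0.419 and 0.196). They were lost too with every transcript, which was also fitted with only the groups compared (adjusted p = 0.419 and 0.0629 by limma).

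Among the angiogenic targets, 13 of 17 had a positive difference for AngII against saline with a median of 0.18, while 39.2% of all genes were positive with a median of −0.06. With median-of-ratios scaling it was 13 of 17 beside 48.7% of all genes, and with quantile normalization 14 of 17 beside 51.4%. It was 10 of 17 with the chamber and adipocyte covariates, beside 52.3% of all genes. Without the 5 libraries low in a chamber marker it was 10 of 17, beside 36.7% of all genes. The lowest of them was Angpt1, a ligand that stabilises vessels, at 13.2 ± 7.52 FPKM in saline and 4.22 ± 1.89 in AngII (SD, n = 6; difference −1.28, adjusted p = 0.488 by limma). Among the metabolic targets 2 of 16 were positive with a median of −0.16. Without the 5 libraries low in a chamber marker it was 8 of 16, beside 36.7% of all genes. With the chamber and adipocyte covariates it was 11 of 16, beside 52.3% of all genes. The glycolytic enzyme gene Eno1 was lowest of the metabolic targets, with a median of 70.5 FPKM and a highest value of 673 in saline (in replicate 6, the library with the most Adipoq) against 35.6 and 48.8 in AngII. Eno1 has a near-identical copy, Eno1b, so its level is uncertain.

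Among the other targets, Ddit4, an inhibitor of mTORC1 signalling, was at 11.3 ± 2.80 FPKM in saline, 29.3 ± 11.4 under AngII and 23.0 ± 11.7 under AngII+ETH (SD, n = 6). Its difference for AngII against saline was 1.25 (SE 0.295, adjusted p = 0.363 by limma). The chemokine receptor gene Cxcr4 was at 1.75 to 2.89 FPKM in saline and at 3.02 to 5.62 FPKM in AngII, ranges that do not overlap (difference 0.67, SE 0.135, adjusted p = 0.263 by limma). Angptl4 did not overlap either, with a lowest saline value of 4.23 FPKM and a highest AngII value of 2.46 FPKM. Of all tested genes 0.359% had no overlap in this comparison.

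For AngII+ETH against AngII the 4 groups had medians of −0.06, −0.03, 0.04 and 0.01 for partners, angiogenic, metabolic and other targets, beside 0.02 over all genes. Among the highest of the 73 were Lox (0.49) and Cxcl12 (0.31), and the lowest were Tfrc (−0.32), Ddit4 (−0.35) and Kdm3a (−0.52). In AngII+ETH the lowest Kdm3a value is listed at 0 beside a median of 2.74 FPKM, and a 0 can be a failed estimate. The 1.01 of Hif1a lay outside the range of all 73, and 0.402% of all tested genes had a higher difference. Hif1a was chosen with these values in view, so its place is a description and not a test. For AngII+ETH against saline, where the saline libraries are shared with the first comparison, Ddit4 (0.89) and Nfil3 (0.63) were among the highest. The lowest beside Angptl4 were Angpt1 (−1.31) and Pfkfb3 (−1.40), whose enzyme makes an activator of glycolysis. Pfkfb3 had a median of 3.07 FPKM and a highest value of 44.0 in saline, and its lowest value in AngII+ETH is listed at 0.

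On the chamber index, 12 of the 73 genes passed higher and 16 lower by limma, against 32.1% and 7.22% of all genes. With median-of-ratios scaling it was 10 higher and 23 lower, against 16.3% and 17.0% of all genes, and with quantile normalization 9 and 20, against 13.0% and 16.1%. The steepest higher were Lox, a collagen cross-linking enzyme (0.162), Pfkfb3 (0.141) and the iron carrier Trf (0.125). The steepest lower to pass were the insulin-responsive glucose transporter Slc2a4 (−0.0899), Ramp3 (−0.0657) and Cxcl12 (−0.0657). Gapdh had −0.0779 and did not pass. The muscle transporter gene Slc2a4 thus sloped the opposite way to Slc2a1. The partner gene Hif1an had a slope of −0.0218, with the sign of Egln1 and Egln3. Of the 13 tested partners and regulators, 8 had a positive slope and 5 a negative one, and 3 passed higher and 1 lower. The VEGF receptor gene Kdr had a slope of −0.0503 and also passed.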

How the data were processed

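Libraries were built with NEB kits from cardiac RNA after rRNA removal, per the labels' protocols. Each deposited file gives a value per transcript, read here as the authors' FPKM, although no header names a unit and FPKM was inferred. Low values scaled with transcript length, but only 28.7 to 53.5% of those of up to 10 fragments were whole within 0.05 of a fitted step, so reads were not recovered, depth is not known and no count test was run. The submitters' processing notes name limma. The aligner, build and strand setting were not given in the sources used here.

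There were 30883 transcripts listed for saline and AngII and 30036 for AngII+ETH, with 28886 in common. Of these, 20478 had a GENCODE M21 entry and gave sums for 12911 genes. Assembled or unmatched transcripts, 11.0 to 16.4% of the common sum, were left out, so gene sums can miss reads; Gapdh, for example, is listed at 0.422 to 14.7 FPKM.

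A gene entered the test if its mean reached 1 FPKM in any group, which left 11703 genes, tested on log2(FPKM + 1) with limma 3.58.1 (R 4.3.3, intensity trend, all 18 libraries in 1 fit, adjusted p under 0.05). Tables and plots used Python 3.11.15, pandas 2.3.3 and matplotlib 3.10.9. Alternatives were other scalings, pseudocount 0.1, no filter, no trend, library weights, chamber and adipocyte covariates, every transcript, only the groups compared, and libraries left out, 23 per comparison and 28 for the slope. The fit with every transcript also held only the groups compared. Of the slope's, an index without Hey2 and a fit without the saline libraries with Adipoq above 100 FPKM were chosen after seeing the data.

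The genes and lists were chosen with earlier results of these data known. Named genes were all 10 listed genes, the 3 pathway genes at each end of a comparison, pathway genes past the threshold, and for Hif1a, Epas1 and Vegfa the 5 nearest profiles among genes of 5 FPKM or more. Some genes that the rule names are not reported here. Arnt, Hif1an and Kdr were named by role after their values were seen. Promoter sequences are from RefSeq, build GRCm38.p6, and gene positions from GENCODE M21 on GRCm38. Replicates were numbered in accession order.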

Additional observations from a re-analysis of the deposited data

Results flagged for a closer look

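3 of the 27 combinations of gene and group held a library whose gap to the next was large against the group's range. For independent, normally distributed values chance would give about 1 in 20. The clustered Bnip3 values are not of that kind and some flags share a library, so the share flagged is not a test. Hif1a in saline replicate 5 was high, at 6.02 FPKM, with the next library at 3.58. Bnip3 in the same library was low, at 3.43 FPKM, with the next at 20.02. Myl7 is listed at 0 in that library, and its part in either value was not tested. Adm in AngII+ETH replicate 2 was high, at 21.9 FPKM, with the next at 11.6; Bnip3 was also highest of its group there, at 27.4 FPKM.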

How the results depend on the processing

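No paired analysis was possible because the labels carry no replicate numbers and the numbers used follow accession order. None of the 9 genes passed in a treatment comparison under any of the 23 alternatives. The number of all genes passing for AngII against saline was 1 as fitted, 2 with median-of-ratios scaling, 2 with quantile normalization, 3 with library weights, 5 with the chamber covariate, 0 with the chamber and adipocyte covariates, 2 without the 5 libraries low in a chamber marker, 0 with only the groups compared, 0 with every transcript, and 0 to 11 when 1 library was left out. For AngII+ETH against AngII it was 0, and 1 without the 5 libraries. For AngII+ETH against saline it was 1 as fitted, 4 with library weights, 2 with both covariates, 2 without the 5 libraries, 0 with only the groups compared, 2 with every transcript, and 0 to 8 when 1 library was left out. The counts with every transcript are also from fits of only the groups compared. Without the 5 libraries Angptl4 was not among those passing against saline. Leaving out saline replicate 5 gave the highest counts, 11 and 8. For the chamber slope 4606 genes passed as fitted, 2154 with the adipocyte covariate, 1204 without the 5 libraries and 2970 to 4761 when 1 library was left out, lowest without saline replicate 5. Of the 9 genes, 4 passed as fitted, 3 to 4 when 1 library was left out, and 1 (Egln3) without the 5 libraries. The Vhl slope reversed to −0.00256 with quantile normalization. Causes were not tested beyond the fewer libraries in a fit.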
